A study of Mus musculus with 56 samples.

Results

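The comparison set whole adrenal glands of male control mice at 9 weeks of age against those at 6 weeks. Its members were the 8 control libraries of these 2 ages in the table of male glands, 4 per age, out of 56 samples in the series. All 8 mice were C57BL/6J males labelled SF1-Cre negative. They were littermates of animals that carry SF1-Cre, a Cre driver of steroidogenic cells, together with floxed Znrf3 (the conditional knockout, cKO). Controls lack Cre, so Znrf3 is not deleted in them, and the labels do not state which floxed alleles they carry. Each library was 1 of 4 independent mice per group, per the series' design text. Males without Cre at 4 weeks, male cKO glands (SF1-Cre+; Znrf3 Fx/Fx) at 9 and 6 weeks, and female SF1-Cre negative glands at 9 and 6 weeks serve below as points of reference, with 4 mice in each. The study asked how cKO glands pass from enlargement to regression, and control glands of the same ages give the course without the deletion.

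The adrenal gland has an outer cortex that makes steroids from cholesterol and an inner medulla of chromaffin cells that make catecholamines. Cortical cells are renewed from the outer capsule and zona glomerulosa inward, and in male mice the inner X-zone regresses at puberty. Around the steroid cells lie blood vessels, resident macrophages and a few lymphocytes. In whole-gland RNA, fewer cells of a type and less RNA per cell cannot be told apart.

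Total counts ran from 18.9M to 22.4M in the 9-week libraries and from 13.9M to 18.3M in the 6-week libraries, with no overlap. The exact 2-sided permutation test over the 8 libraries gave p = 0.0286 for this gap, the smallest it can give (adjusted p = 0.0571 over 2 such measures). Mitochondrially encoded genes took 3.62% to 5.03% of counts at 9 weeks and 4.92% to 5.66% at 6 weeks (exact permutation p = 0.0571). All 7 markers of the cortex and all 5 of the medulla averaged over 1 CPM (counts relative to the library total). Markers of liver, kidney, T cells and skeletal muscle summed to at most 1.44 CPM in any of the 8, with Umod and Kap at 0 throughout. Adipose markers, 3 of 4 over 1 CPM, summed to 116 to 192 CPM at 9 weeks and 109 to 195 CPM at 6 weeks. Pancreas markers, 1 of 3 over 1 CPM, summed to 67.8 to 102 CPM and 59.7 to 82.2 CPM. Medulla markers summed to between 4680 and 8650 CPM at 9 weeks and between 7170 and 15000 CPM at 6 weeks. Levels below are CPM after TMM scaling, which adjusts for differences in library composition. Along the first principal component, which held 22.3% of the variance, the 9-week glands lay from -39.1 to -0.003 and the 6-week glands from 5.46 to 33.5. The 9-week glands with library numbers 19 and 20 lay at -39.1 and -22, and those with 34 and 35 at -0.003 and -8.37. All 6-week glands carry numbers above 24. Age and the range of library numbers are thus partly confounded, and the part of each in this component was not tested.

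No gene passed the test between the ages. The quasi-likelihood test of edgeR, adjusted by Benjamini and Hochberg, called 0 of 17086 genes (0%) at an adjusted p under 0.05, and the smallest adjusted p was 0.179. DESeq2 called 5 of the same genes, 2 of them higher at 9 weeks (Kcnj11 and Foxo6) and 3 lower (Adgrg3, Gm13341 and Gm7451). At an unadjusted p under 0.05 there were 1200 genes, 580 higher at 9 weeks (3.39%) and 620 lower (3.63%). In 403 genes (2.36%) all 4 glands at 9 weeks lay above all 4 at 6 weeks, and in 416 genes (2.43%) all lay below. The median log2 fold change over all genes was 0.003. The median standard error of a log2 fold change was 0.15, and the 95% interval excluded a 2-fold difference for 13645 genes (79.9%) and a 1.5-fold difference for 10261 (60.1%). Because no difference passed, "higher" and "lower" in what follows describe the measured levels of these 8 mice only. The depth and mitochondrial share differ between the same libraries, and their part in any gene's difference was not tested.

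**Figure D1:**
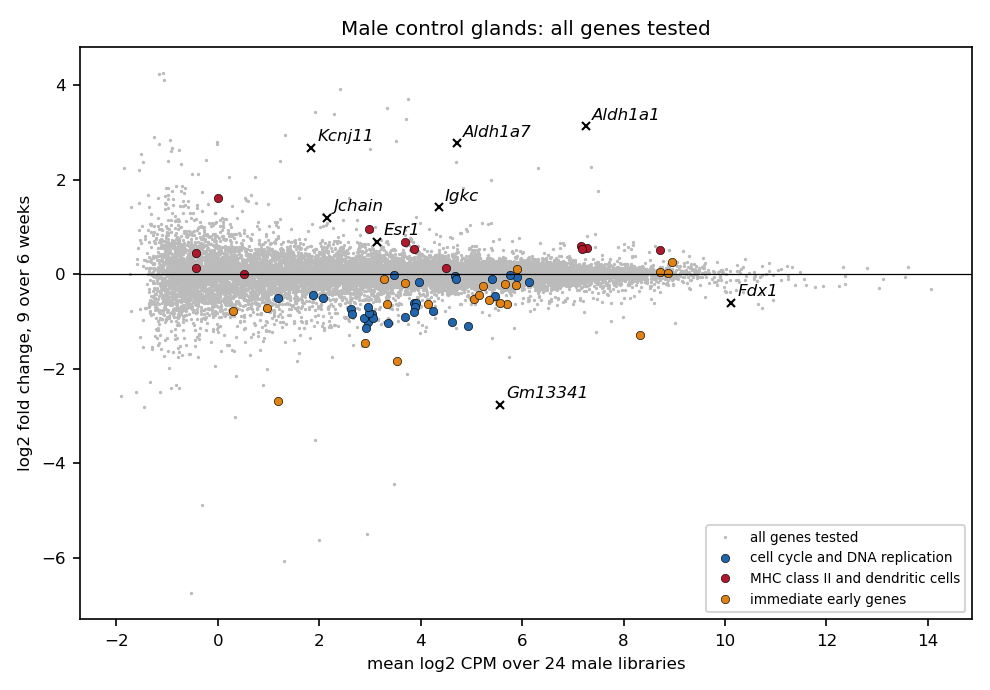
Log2 fold change between 9 and 6 weeks (vertical axis) against the average log2 CPM over the 24 male libraries (horizontal axis) for the 17086 genes tested in male control glands. Coloured points are members of 3 gene lists and crosses are single genes named in the text. Genes of the cell cycle lie at or below 0, and Aldh1a1 and Aldh1a7 stand above the cloud at 3.14 and 2.78.

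Among 29 gene lists, 428 of 467 distinct genes were tested and 0 were called. The list farthest below 0 among those with at least 5 tested members was that of the cell cycle and DNA replication, with a median log2 fold change of -0.69 over 30 genes. The list farthest above 0 was that of MHC class II and dendritic cells, at 0.54 over 12 genes.

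**Figure D2:**
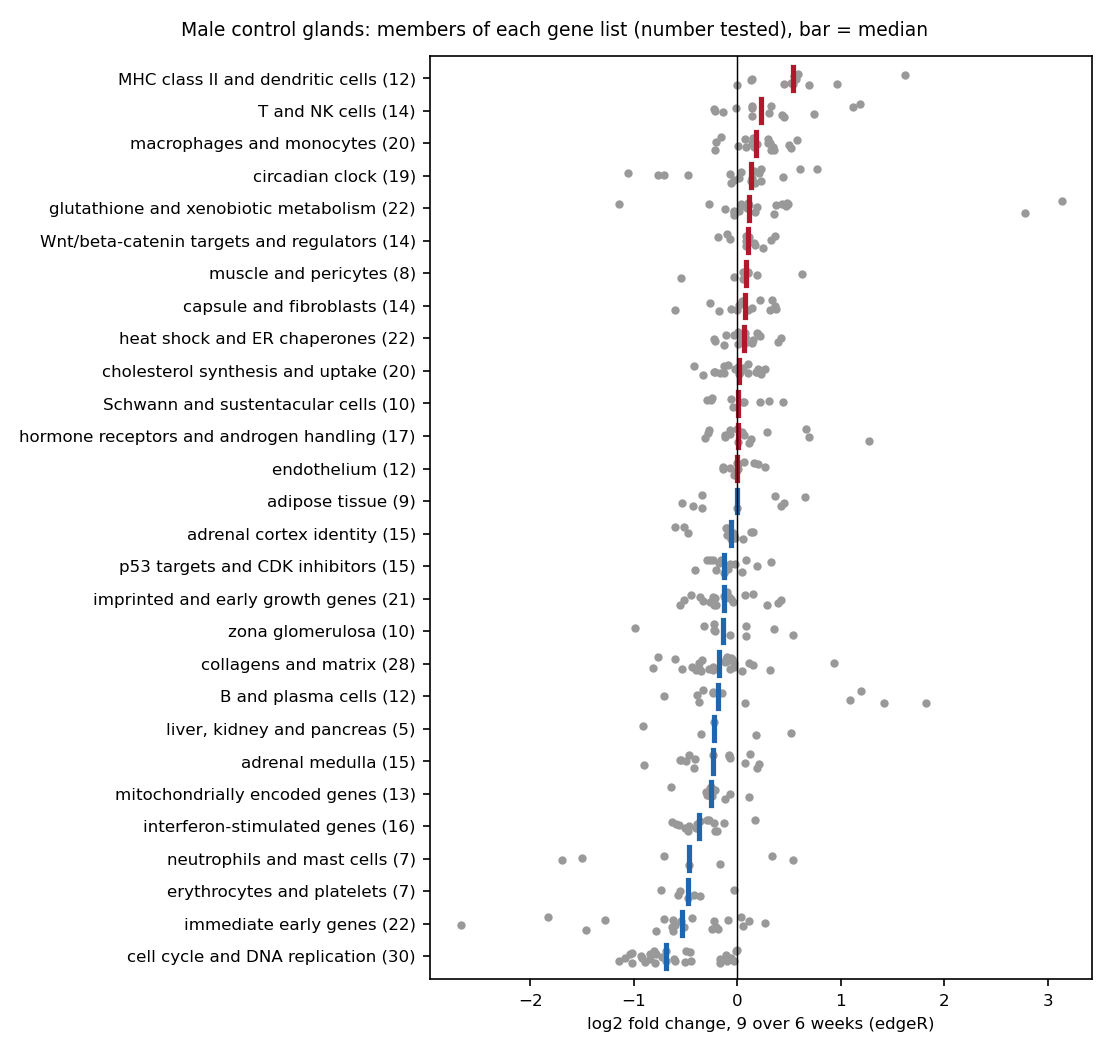
Log2 fold change between 9 and 6 weeks (horizontal axis) of each tested member of each gene list (grey points) in male control glands, with the list's median as a bar and the number of members tested in brackets. List medians run from -0.69 (cell cycle and DNA replication) to 0.54 (MHC class II and dendritic cells) among lists with at least 5 members tested.

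Genes of dividing cells were lower at 9 weeks. All 30 members of the list were tested and all 30 had a negative log2 fold change. In 16 of the 30 every gland at 9 weeks lay below every gland at 6 weeks, against 2.43% of all genes, and 11 had an unadjusted p under 0.05, against 3.63%. None passed after adjustment over all genes. Mki67, which encodes the Ki-67 protein of cycling cells (chromosome 7, 135689784 to 135716361, GRCm38), measured 13.1, 6.88, 19.2 and 14.2 CPM at 9 weeks, against 27.7, 19.9, 26.8 and 39 CPM at 6 weeks. The groups did not overlap, though the highest 9-week gland came just below the lowest 6-week gland. On the log2 scale the difference was -1.08 ± 0.40 (SE), with a 95% interval from -1.92 to -0.25 and an adjusted p of 0.606.

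Top2a, the DNA topoisomerase of dividing cells, had 12.4, 5.35, 11 and 9.18 CPM at 9 weeks and 16.2, 15.7, 17.6 and 27.1 CPM at 6 weeks. Plk1, a kinase of mitotic entry, had 3.51, 3.59, 4.22 and 5.10 CPM at 9 weeks and 6.71, 5.12, 8.10 and 11.2 CPM at 6 weeks. Ube2c, the ubiquitin-conjugating enzyme of the anaphase-promoting complex, had 2.97, 2.39, 3.66 and 2.99 CPM at 9 weeks and 4.95, 4.31, 6.6 and 10.6 CPM at 6 weeks. In all 3 genes the 6-week gland of replicate 4 was the highest of the 8. Without it the list's median was -0.45 in place of -0.69, the shift that moved it most. Genes of DNA replication were among those nearest 0. Mcm2, Mcm3, Mcm4, Mcm5 and Mcm7, subunits of the replicative helicase, lay between -0.11 and -0.006, and Mcm6 lay at -0.46. The mitotic genes Cenpf, Ccnb1 and Cdk1 lay at -1.03, -1.02 and -0.89.

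In both Mki67 and Top2a the 4-week controls were the highest of the 3 ages. Mki67 there was 39.5, 96.5, 39.9 and 49.5 CPM, and Top2a was 41.2, 78.2, 31.4 and 39 CPM, so that each 4-week gland exceeded every 6-week gland. The gland with the highest level of both at 4 weeks was also the one with 264 CPM of Akr1c18, a marker of the transient X-zone, against 2.02 CPM or less in the other 3. The 6-week libraries serve in both steps, so the steps are not independent. In male cKO glands the list's median between 9 and 6 weeks was -0.71, and in female control glands it was -0.44, with 0 of 30 members called in either. Mki67 in cKO glands had 10.6, 11.3, 14 and 11.1 CPM at 9 weeks. At 6 weeks it had 7.99, 16.3, 37.7 and 11 CPM, so the ages overlapped and the gland of replicate 3 stood high. In female controls Mki67 had 37.7, 25.1, 43.2 and 36.3 CPM at 9 weeks. At 6 weeks it had 55.3, 44.1, 45.4 and 41.3 CPM, again with overlap.

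**Figure D3:**
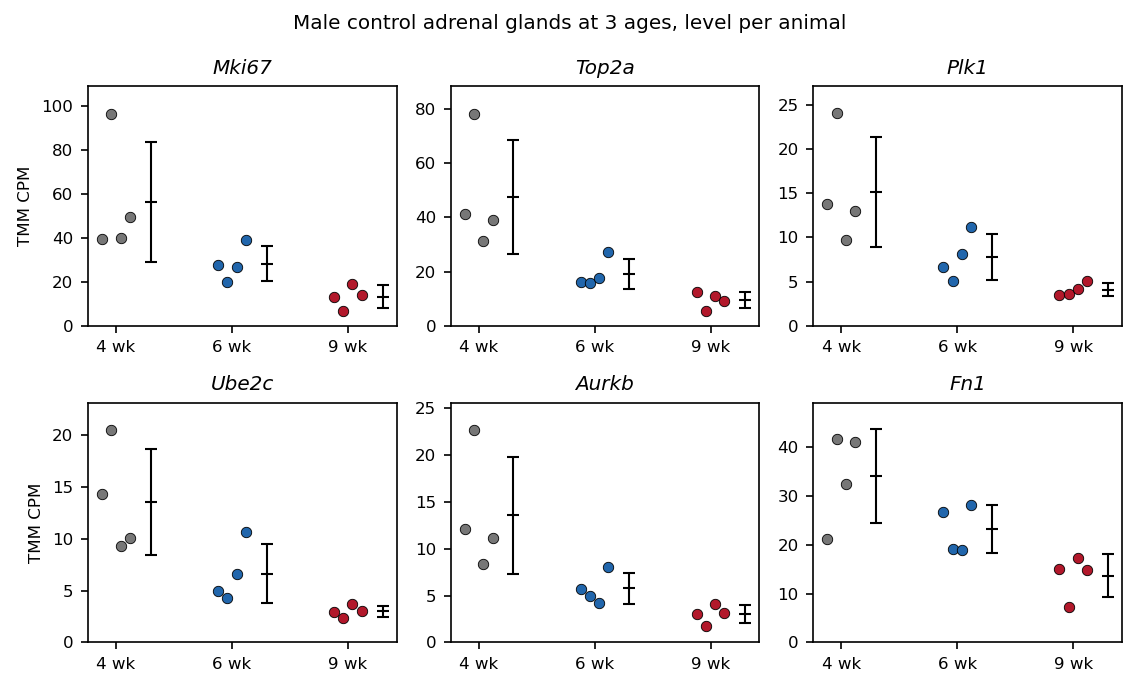
Level per animal in TMM-scaled CPM (vertical axis) of 5 cell cycle genes and of Fn1 in male control glands at 4, 6 and 9 weeks (horizontal axis). Points are mice, and bars give the mean ± SD of 4. Mki67 averages 13.4 CPM at 9 weeks and 28.4 CPM at 6 weeks.

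Promoters of such genes are known for the CCAAT box, bound by NF-Y, and for the CHR element TTTGAA, bound by the MuvB complexes that time transcription in the cycle. The bases before the RefSeq start of 3 of the genes are printed as examples, and all 3 are among the genes that held both elements. Plk1, described above, held CCAAT but no TTTGAA match. Capitals mark each match, on either strand, to CCAAT or TTTGAA within 250 bases of build GRCm38.p6, and no CCAAT match overlapped a TTTGAA match in them.
Mki67 (chr7:135716380-135716629, minus strand): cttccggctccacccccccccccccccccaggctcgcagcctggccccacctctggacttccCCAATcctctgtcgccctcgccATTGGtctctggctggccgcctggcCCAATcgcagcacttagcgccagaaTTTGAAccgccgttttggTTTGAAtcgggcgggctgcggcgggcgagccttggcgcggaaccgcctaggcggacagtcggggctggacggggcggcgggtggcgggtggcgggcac
Top2a (chr11:99024190-99024439, minus strand): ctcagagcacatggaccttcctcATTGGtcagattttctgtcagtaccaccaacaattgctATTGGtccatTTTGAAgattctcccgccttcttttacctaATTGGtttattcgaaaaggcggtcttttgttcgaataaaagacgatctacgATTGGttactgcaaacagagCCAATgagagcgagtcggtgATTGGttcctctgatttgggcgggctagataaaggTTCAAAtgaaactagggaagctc
Ube2c (chr2:164769679-164769928, plus strand): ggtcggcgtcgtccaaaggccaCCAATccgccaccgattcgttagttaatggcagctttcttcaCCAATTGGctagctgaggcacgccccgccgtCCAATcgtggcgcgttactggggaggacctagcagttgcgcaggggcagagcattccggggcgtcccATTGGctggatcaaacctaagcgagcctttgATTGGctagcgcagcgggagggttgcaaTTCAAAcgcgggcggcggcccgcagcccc
The window of Mki67 held 3 CCAAT and 2 TTTGAA matches, that of Top2a 6 and 2, and that of Ube2c 6 and 1. RefSeq promoters were at hand for 25 of the 30 genes. Of these, 20 held CCAAT and 8 held TTTGAA, and all 8 of the latter also held CCAAT. Over 27025 genes the shares were 34.5% for CCAAT, 16.3% for TTTGAA and 5.73% for both. A match of letters is a description of the window and says nothing of binding.

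Aldh1a1 was the gene of the glutathione and xenobiotic list with the largest difference. It encodes a cytosolic aldehyde dehydrogenase that turns retinaldehyde into retinoic acid (chromosome 19, 20492715 to 20643465). The 9-week glands held 63, 223, 136 and 127 CPM, against 17.3, 16.8, 18.7 and 9.59 CPM at 6 weeks. Every 9-week gland lay well above every 6-week gland, while the 9-week glands also varied more among themselves (137 ± 65.7 CPM at 9 weeks and 15.6 ± 4.08 CPM at 6 weeks, SD, n = 4 each). The log2 fold change was 3.14 ± 0.78 (SE), with a 95% interval from 1.52 to 4.76. In edgeR's fit over all 24 male libraries the adjusted p was 0.541. In the fit of the 8 libraries compared it was 0.0223, and in that of the 12 male control libraries 0.011. Over the 20 alternatives the log2 fold change stayed between 2.80 and 3.38 and the adjusted p ran from 0.011 to 0.963, with 4 below the threshold.

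Its neighbour Aldh1a7, a rodent paralog (chromosome 19, 20692953 to 20727562), had 22.3, 57.3, 29.2 and 37.8 CPM at 9 weeks, against 7.08, 6.00, 7.03 and 1.12 CPM at 6 weeks. Again the groups did not overlap, and the 9-week gland of replicate 2 was the highest for both genes. Its log2 fold change was 2.78 ± 0.82 (SE; adjusted p = 0.541). The transcripts are alike: 6.06% of the 50-base stretches of Aldh1a1 transcripts also occur in the Aldh1a7 transcript, and 7.49% the other way, so a small part of the reads of either could have been counted for the other. The bases before their starts are alike as well, and are printed for that reason. Capitals mark the 105 of 120 bases (87.5%) that are identical in the alignment. Of 2 RefSeq starts of Aldh1a1, the more similar is shown.
Aldh1a1 (chr19:20601848-20601967, plus strand): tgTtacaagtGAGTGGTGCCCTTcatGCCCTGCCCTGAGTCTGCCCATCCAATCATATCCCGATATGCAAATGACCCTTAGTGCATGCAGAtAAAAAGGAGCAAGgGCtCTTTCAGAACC
Aldh1a7 (chr19:20727557-20727676, minus strand): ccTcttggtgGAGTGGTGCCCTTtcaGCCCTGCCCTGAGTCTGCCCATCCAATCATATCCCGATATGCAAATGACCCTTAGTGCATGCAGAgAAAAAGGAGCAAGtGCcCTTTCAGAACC
The 4-week controls held 24.5, 8.26, 18.4 and 14.8 CPM of Aldh1a1, within or near the range at 6 weeks.

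In the other pairs of groups the log2 fold change of Aldh1a1 lay below 0, within its error. Male cKO glands held 158, 190, 272 and 710 CPM at 9 weeks and 291, 309, 25.9 and 757 CPM at 6 weeks (log2 fold change -0.05 ± 0.70 SE). So 3 of 4 cKO glands at 6 weeks already exceeded every control gland of either age. Female control glands held 23.7, 18.6, 34.5 and 22.7 CPM at 9 weeks and 25.6, 36.9, 33.9 and 41.5 CPM at 6 weeks (-0.47 ± 0.53). Aldh1a7 in female controls was low and fell without overlap. It had 1.57, 1.22, 1.99 and 1.06 CPM at 9 weeks and 2.84, 2.83, 5.06 and 3.54 CPM at 6 weeks. The difference between the male and the female effect was 3.61 ± 0.78 for Aldh1a1 and 4.07 ± 0.85 for Aldh1a7. The value for Aldh1a7 thus holds the female fall as well as the male rise. In the fit of 32 libraries the adjusted p of these differences was 0.282 and 0.227. With the 16 control libraries alone it was 0.00283 for Aldh1a1 and 0.0128 for Aldh1a7, and over 22 alternatives it ranged up to 0.771 and 0.758. The control and cKO effects differed by 3.19 for Aldh1a1 (adjusted p = 0.203).

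Kcnj11 encodes Kir6.2, the pore of the ATP-sensitive potassium channel (chromosome 7, 46093953 to 46100764). It measured 6.76, 13.2, 7.32 and 3.73 CPM at 9 weeks, against 1.44, 1.62, 0.645 and 1.05 CPM at 6 weeks. All 9-week glands lay above all 6-week glands, at low levels throughout. The log2 fold change was 2.68 ± 0.58 (SE), with an adjusted p of 0.469 in edgeR's fit and 0.0108 by DESeq2. Over 20 alternatives the adjusted p ran from 0.0108 to 0.927, and it was below the threshold in 3.

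Esr1, the oestrogen receptor alpha gene (chromosome 10, 4611593 to 5005614), measured 12.4, 9.80, 10.4 and 11.6 CPM at 9 weeks, against 6.5, 6, 7.03 and 7.88 CPM at 6 weeks. The groups were well separated and each was tight (11.1 ± 1.2 CPM at 9 weeks and 6.85 ± 0.81 CPM at 6 weeks, SD, n = 4 each), with a log2 fold change of 0.69 ± 0.18 (SE; adjusted p = 0.541). In its list of 17 tested hormone receptors and androgen-handling genes, 3 were higher and 0 lower at an unadjusted p under 0.05 (3.39% and 3.63% of all genes). The median was 0.009, and -0.06 without the 9-week gland of replicate 3. The others were Fkbp5, a co-chaperone of steroid receptors, and the thyroid hormone receptor gene Thra. Fkbp5 had 144, 194, 127 and 128 CPM at 9 weeks and 90.8, 94.4, 86 and 102 CPM at 6 weeks, without overlap. Thra had 157, 164, 124 and 142 CPM at 9 weeks and 139, 112, 112 and 115 CPM at 6 weeks, where the 6-week gland of replicate 1 overlapped.

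Other genes with the smallest p among those higher at 9 weeks and without overlap ranged in size from Krt80 to Kank2. Foxo6, a forkhead transcription factor gene, measured 6.22, 6.45, 5.96 and 5.49 CPM at 9 weeks, against 2.66, 3.88, 2.72 and 3.42 CPM at 6 weeks (log2 fold change 0.93 ± 0.21 SE). Camsap3, whose protein caps microtubule minus ends, lay at 0.68, and the keratin gene Krt80 at 1.01. Tns3 (a focal adhesion protein), Rubcn (a brake on autophagy) and Kank2 (an adhesion adaptor) lay at 0.38, 0.30 and 0.26. None had an adjusted p below 0.541 in edgeR's fit over all male libraries.

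**Figure D4:**
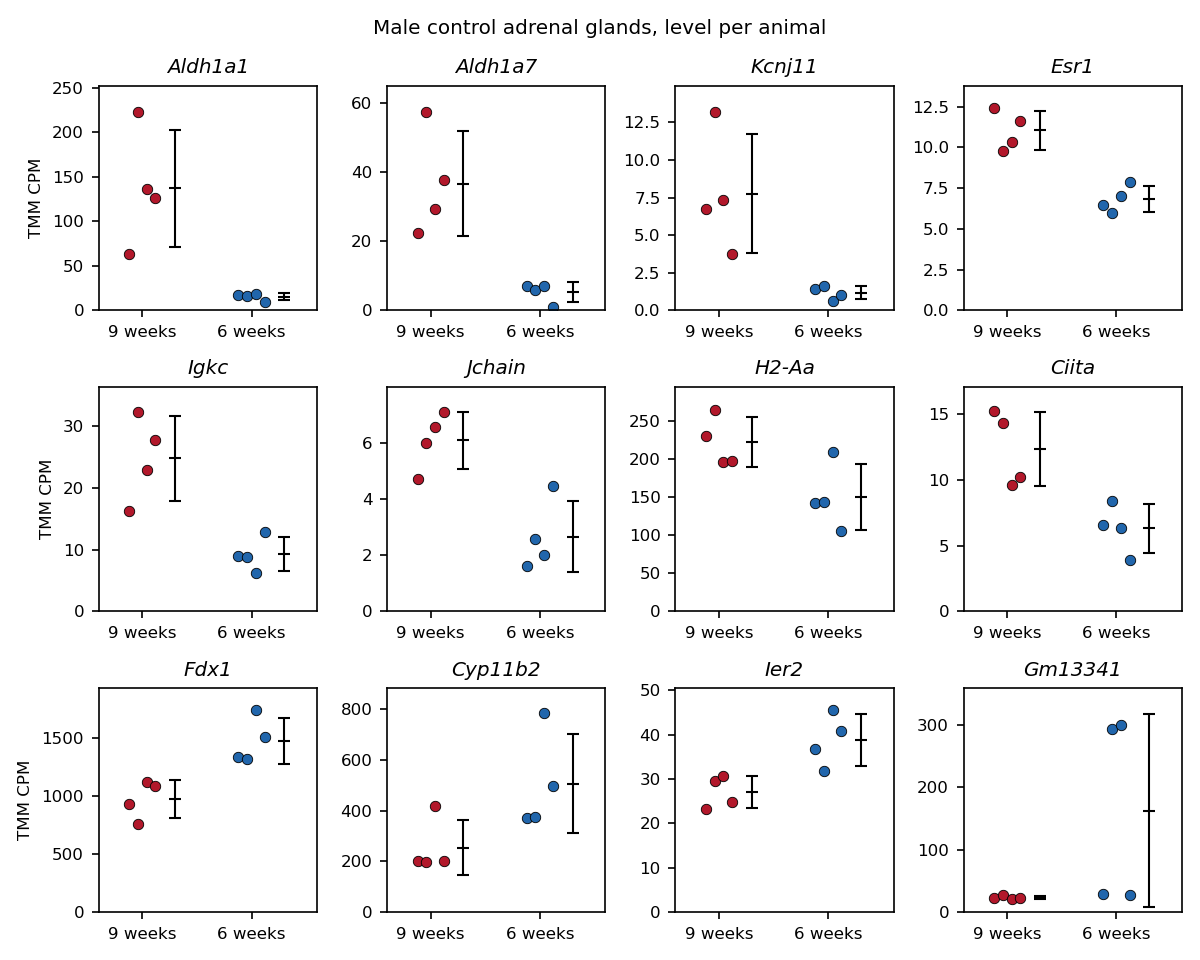
Level per animal in TMM-scaled CPM (vertical axis, from 0) of 12 genes in male control glands, with 9-week mice on the left in red and 6-week mice on the right in blue. Points are mice, and bars give the mean ± SD of 4. Aldh1a1 averages 137 CPM at 9 weeks and 15.6 CPM at 6 weeks, and Gm13341 is near 300 CPM in 2 mice at 6 weeks only.

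Some immunoglobulin transcripts of antibody-secreting cells were higher at 9 weeks without overlap (3 of 12 listed genes, against 2.36% of all genes), while genes of B cells overlapped. Igkc, the kappa light chain constant region, measured 16.3, 32.3, 22.8 and 27.7 CPM at 9 weeks, against 9.00, 8.81, 6.24 and 12.9 CPM at 6 weeks. Igha, the heavy chain of IgA, measured 32.8, 59.95, 46.5 and 45.4 CPM at 9 weeks, against 10.3, 11.8, 7.89 and 22.3 CPM at 6 weeks. Jchain, which joins the units of IgA and IgM, measured 4.70, 5.98, 6.56 and 7.07 CPM at 9 weeks, against 1.6, 2.56, 2.01 and 4.47 CPM at 6 weeks. In all 3 the groups did not overlap, and the 6-week gland of replicate 4 was the highest of its age. The log2 fold changes were 1.42 ± 0.39, 1.82 ± 0.58 and 1.2 ± 0.43 (SE), with adjusted p of 0.541, 0.586 and 0.606.

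Of the other 9 members of the list of 12, Ighg2c, an IgG heavy chain, lay at 1.09 with overlap and Ighd, that of IgD, at 0.07, and 7 were negative. Mzb1, an endoplasmic reticulum protein of plasma and marginal zone B cells, went the other way, at 1.3, 1.67, 1.03 and 1.19 CPM at 9 weeks and 2.02, 1.94, 2.51 and 2.04 CPM at 6 weeks. The B cell genes Ms4a1, Cd79a, Cd79b and Pax5 lay between -0.38 and -0.15, with overlap. Ighm, the heavy chain of IgM, had 137, 101, 124 and 110 CPM at 9 weeks and 170, 135, 139.5 and 166 CPM at 6 weeks, a log2 fold change of -0.37. The list's median was -0.19, and a filter at CPM 5 in 4 libraries, which drops the low B cell genes, turned it to 1.32. Without the 6-week gland of replicate 4 it was 0.01.

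At 4 weeks Igkc was 3.05, 3.66, 3.43 and 2.06 CPM, below every male control gland at 9 or 6 weeks. The same transcripts were higher at 9 weeks in the other pairs of groups, which share no library with the male controls. In male cKO glands edgeR called 130 of 17086 genes between 9 and 6 weeks (0.761%), 70 of them higher (0.41%). Igkc, Igha and Jchain were among those higher, with log2 fold changes of 3.16 ± 0.41, 3.17 ± 0.61 and 2.92 ± 0.45 (adjusted p = 0.00152, 0.0362 and 0.0108). The count of 130 depends on single libraries, from 2 without 9-week cKO replicate 3 or 6-week cKO replicate 3 to 1345 without 9-week cKO replicate 1. Igkc stayed called in all 22 alternatives. Igha lost its call without 6-week cKO replicate 1, 3 or 4 or 9-week cKO replicate 2, 3 or 4 (adjusted p up to 0.129) and with library number range in the model (0.126), and Jchain without 6-week cKO replicate 3 (adjusted p = 0.0527). In female control glands edgeR called 6 of 18590 genes (0.0323%), of which 1 was higher (0.00538%), and that gene was Jchain (2.52 ± 0.42, adjusted p = 0.0258). Its call was lost without 6-week female replicate 1, 3 or 4 or 9-week female replicate 2, 3 or 4 (adjusted p up to 0.174). The count of 6 ran from 0 without 6-week female replicate 1 or 3 or 9-week female replicate 2 or 4 to 14 without 6-week female replicate 2, and it was 1 without 6-week replicate 4 or 9-week replicate 3 and 3 without 9-week replicate 1. The male control effect minus the male cKO effect was -1.74 for Igkc, -1.34 for Igha and -1.72 for Jchain, with adjusted p of 0.2, 0.453 and 0.225 for these differences.

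Genes of antigen presentation were higher at 9 weeks. Of 12 tested members of the MHC class II and dendritic cell list, 11 had a positive log2 fold change, 7 were higher at an unadjusted p under 0.05 and 0 lower, and 2 did not overlap (17086 genes held 3.39% and 2.36%). Ciita, the master regulator of class II transcription, measured 15.2, 14.3, 9.61 and 10.2 CPM at 9 weeks, against 6.55, 8.44, 6.38 and 3.88 CPM at 6 weeks (0.97 ± 0.26 SE, adjusted p = 0.541). H2-DMb1, a chain of the peptide-loading chaperone, measured 20.2, 18.7, 13.5 and 14.5 CPM at 9 weeks, against 10.1, 10.9, 11.9 and 8.35 CPM at 6 weeks. These were the 2 without overlap.

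The class II chains themselves overlapped through 1 gland. H2-Aa had 231, 265, 196 and 198 CPM at 9 weeks and 143, 144, 210 and 105 CPM at 6 weeks, with the 6-week gland of replicate 3 inside the 9-week range. H2-Eb1 had the same order, at 231, 246, 185 and 183 CPM at 9 weeks and 132, 144, 201 and 102 CPM at 6 weeks. Without that gland the list's median was 0.72, and it was 0.35 with library numbers above 24 only. Of the 8 glands, that setting leaves out those of 9-week replicates 1 and 2, which were the highest of the 8 for Ciita, H2-DMb1, H2-Aa and H2-Eb1. The dendritic cell genes Flt3, Clec9a and Itgax lay between -0.002 and 0.14. Xcr1 lay at 0.45 and Cd209a at 1.62, both with overlap and at low levels. In male cKO glands the list's median was 0.81 with 2 members called higher, and in female controls it was 0.03 with 0 called. The difference between male controls and male cKO glands for H2-Aa was -0.29 (adjusted p = 0.663).

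Macrophage genes leaned higher at 9 weeks. Of 20 tested, 17 had a positive log2 fold change (median 0.18), 1 was higher at an unadjusted p under 0.05 (3.39% of all genes) and 4 were higher without overlap (2.36% of all genes). Without the 6-week gland of replicate 3 the median was 0.32. Cx3cr1, a chemokine receptor of resident macrophages, had 44.8, 35, 33.2 and 31.7 CPM at 9 weeks and 26.1, 26.7, 26.2 and 22.9 CPM at 6 weeks. Csf1r, the receptor that macrophages need for survival, had 69.8, 55.4, 52.2 and 52.6 CPM at 9 weeks and 44, 45.4, 48.6 and 43 CPM at 6 weeks. Lyz2, the lysozyme of myeloid cells, had 144, 109, 111 and 101 CPM at 9 weeks and 75.8, 84.2, 71.4 and 79.8 CPM at 6 weeks. The unadjusted p in edgeR's fit was 0.0414 for Cx3cr1, 0.112 for Csf1r and 0.194 for Lyz2. The macrophage glycoprotein gene Cd68 overlapped, with 20.9, 22.4, 26.5 and 22 CPM at 9 weeks and 21.4, 20.9, 24.6 and 19.9 CPM at 6 weeks. The negative members were Lyve1 (-0.21), Folr2 (-0.20) and Mertk (-0.16), all with overlap. In male cKO glands the list's median was 0.44, and in female controls it was -0.04, with 0 called in either. Of the 14 tested members of the T and NK cell list, 1 was higher without overlap (2.36% of all genes). This was Klrb1c, a receptor gene of NK cells, which averaged 0.762 CPM at 9 weeks and 0.347 CPM at 6 weeks.

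For most genes of steroid synthesis the ages overlapped. Of 15 tested cortex genes 12 had a negative log2 fold change, with a median of -0.06 and 2 lower at an unadjusted p under 0.05 (3.63% of all genes). Leaving out single glands moved the median between -0.11 (without 6-week replicate 1) and -0.02 (without 9-week replicate 2, or 6-week replicate 4), and to -0.04 without 6-week replicate 2. Star, which carries cholesterol into mitochondria, had 10250, 6762, 13070 and 11460 CPM at 9 weeks and 9483, 11310, 11010 and 12610 CPM at 6 weeks. Its 95% interval ran from -0.63 to 0.44. Hsd3b1 and Cyp11a1, enzymes of the early steps, lay at 0.16 (95% interval -0.08 to 0.39) and 0.14 (-0.22 to 0.50). Cyp11b1, which makes corticosterone, lay at -0.03 (-0.47 to 0.42). Reads of Cyp11b1 and of its close relative Cyp11b2 may be split uncertainly.

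Fdx1 was the exception without overlap. It encodes the ferredoxin that feeds electrons to the mitochondrial steroid enzymes (chromosome 9, 51943306 to 51963556). The 9-week glands held 936, 761.7, 1128 and 1087 CPM, against 1336, 1323, 1742 and 1516 CPM at 6 weeks (log2 fold change -0.60 ± 0.17 SE, adjusted p = 0.541). Mrap, which brings the ACTH receptor to the cell surface, overlapped, with 159, 217, 123 and 109 CPM at 9 weeks and 178, 282, 228 and 181 CPM at 6 weeks (-0.52 ± 0.20). Nr5a1, which encodes SF1 itself, had 407, 349, 515 and 601 CPM at 9 weeks and 509, 533, 779 and 784 CPM at 6 weeks (-0.48 ± 0.28). None of the 3 passed after adjustment.

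The zona glomerulosa was mixed. Cyp11b2, the aldosterone synthase gene (chromosome 15, 74851010 to 74856318), had 203, 196.5, 418 and 201 CPM at 9 weeks and 372, 373, 784 and 496 CPM at 6 weeks. In both ages the gland of replicate 3 was highest, and the 9-week one alone overlapped the 6-week range. Its log2 fold change was -0.99 ± 0.47 (SE; adjusted p = 0.707). Shh, the ligand of cortical progenitors, had 122.5, 172, 152 and 155 CPM at 9 weeks and 133, 92.9, 88.8 and 98.5 CPM at 6 weeks (0.54 ± 0.24). The potassium channel gene Kcnk9 lay at -0.22 ± 0.21. The list of 10 had a median of -0.14, which lay between -0.09 and -0.06 without 9-week replicate 1 or 3 or 6-week replicate 1 or 4. Akr1c18 was at 0 CPM in all 4 glands at 9 weeks, where 3 counts would be 0.134 to 0.159 CPM, and at 0.32, 0, 0 and 0.197 CPM at 6 weeks. Znrf3, left intact in these mice, had 38.5, 27.5, 30.7 and 32.4 CPM at 9 weeks and 32.4, 27.4, 26.4 and 29.3 CPM at 6 weeks (0.16 ± 0.13).

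Immediate early genes, which cells switch on within minutes of a stimulus, were lower at 9 weeks as a list, with 1 gland standing out. Of 22 tested members 18 had a negative log2 fold change (median -0.53), and 6 were lower and 0 higher at an unadjusted p under 0.05 (3.63% and 3.39% of all genes). Ier2 had 23.2, 29.6, 30.7 and 24.8 CPM at 9 weeks and 36.8, 31.8, 45.6 and 40.9 CPM at 6 weeks, without overlap. Nr4a2, an orphan nuclear receptor gene of the ACTH response, had 5.08, 7.41, 9.90 and 11.1 CPM at 9 weeks and 13.4, 29, 67 and 9.99 CPM at 6 weeks. Fosb, a subunit of AP-1, had 0.865, 0.717, 1.36 and 0.923 CPM at 9 weeks and 3.04, 3.25, 17.9 and 0.854 CPM at 6 weeks. The 6-week gland of replicate 3 was the highest of the 8 for each of these, and the list's median without it was -0.38. Leaving out the 9-week gland of replicate 1 instead also gave a median of -0.38. The log2 fold change of Nr4a2 without the 6-week gland of replicate 3 was -1.05, and that of Fosb -1.29, in place of -1.83 and -2.67.

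That gland was also high in 2 genes of the circadian list. Nfil3 had 8.16, 14.4, 10.5 and 5.67 CPM at 9 weeks and 10.1, 24.6, 34.5 and 11.4 CPM at 6 weeks. Per2 had 30.2, 46.9, 108 and 121 CPM at 9 weeks and 72.4, 105, 208 and 136.5 CPM at 6 weeks, a wide spread within each age. The median of the 19 clock genes was 0.13, but -0.04 without 9-week replicate 3, -0.03 without 9-week replicate 4, -0.02 without 6-week replicate 2 and 0.08 without 6-week replicate 4. The sources used here give no hour at which glands were taken. In male cKO glands the immediate early median was -0.04 and in female controls 0.02.

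Genes of the matrix leaned lower at 9 weeks, with single genes on both sides. Of 28 tested, 23 had a negative log2 fold change (median -0.17), 3 were lower and 1 higher at an unadjusted p under 0.05 (3.63% and 3.39% of all genes). The median was -0.10 without the 9-week gland of replicate 2. Fn1 (fibronectin) had 15.1, 7.36, 17.3 and 14.9 CPM at 9 weeks and 26.8, 19.1, 18.9 and 28.2 CPM at 6 weeks. Lox, which cross-links collagen, had 4.11, 4.64, 6.10 and 4.61 CPM at 9 weeks and 9.48, 10.2, 6.81 and 7.75 CPM at 6 weeks. Tnc (tenascin C) went the other way without overlap, with 17.1, 19.9, 24.2 and 24.3 CPM at 9 weeks and 12.6, 9.06, 9.32 and 13.5 CPM at 6 weeks. The log2 fold changes were -0.77 ± 0.27, -0.82 ± 0.25 and 0.94 ± 0.29 (SE; adjusted p = 0.604, 0.585 and 0.585).

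Among the other lists, 15 of 16 interferon-stimulated genes had a negative log2 fold change (median -0.37), with 3 lower and 0 higher at an unadjusted p under 0.05 (3.63% and 3.39% of all genes). Their median was -0.25 without the 6-week gland of replicate 3. Irf7, a transcription factor of the interferon response, had 42.5, 50.5, 46 and 63.6 CPM at 9 weeks and 60.8, 88.6, 98 and 66.3 CPM at 6 weeks. All 7 tested genes of erythrocytes and platelets were negative (median -0.47). The globin gene Hbb-bs had 57.2, 45, 40.4 and 49.6 CPM at 9 weeks and 69.4, 60.2, 75.6 and 81.1 CPM at 6 weeks. Of 13 mitochondrially encoded genes 12 were negative (median -0.25). The oxidase subunit gene mt-Co1 had 14210, 17800, 17850 and 19120 CPM at 9 weeks and 18700, 21460, 22260 and 22570 CPM at 6 weeks, and without the 9-week gland of replicate 1 the list's median was -0.14. Of 22 glutathione and xenobiotic genes 4 were higher and 0 lower at an unadjusted p under 0.05 (3.39% and 3.63% of all genes), with a median of 0.11. Beside the Aldh1a pair these were the glutathione transferase genes Gstm2 and Gstt1, at 0.47 and 0.43.

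Medulla genes leaned lower at 9 weeks, and 1 gland at 6 weeks stood high. Th, the first enzyme of catecholamine synthesis, had 248, 495, 433 and 288 CPM at 9 weeks and 297, 1505, 539 and 388 CPM at 6 weeks. Its log2 fold change was -0.90, and -0.15 without the 6-week gland of replicate 2. Chga, a protein of chromaffin granules, had 1702, 3512, 3357 and 2237 CPM at 9 weeks and 3153, 4645, 3620 and 3013 CPM at 6 weeks. Of 15 tested members 11 had a negative and 4 a positive log2 fold change, among the latter Scg2 at 0.21 and Penk at 0.19. At an unadjusted p under 0.05 there was 1 lower and 0 higher (3.63% and 3.39% of all genes), and 0 were without overlap. The median was -0.23, and it was -0.10 without the 6-week gland of replicate 2 and -0.04 without the 9-week gland of replicate 1. In male cKO glands the list's median was 0.52, with 1 of 15 members called higher, against 0.41% of all genes. In female controls the list's median was 0.225 with 0 called.

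The other genes with the smallest p among those lower at 9 weeks and without overlap belonged to varied functions. Adgrg3, an adhesion G protein-coupled receptor gene, had 6.6, 7.31, 6.14 and 7.38 CPM at 9 weeks and 11.3, 11.1, 11.8 and 18.3 CPM at 6 weeks (-0.94 ± 0.20 SE, adjusted p = 0.469). Slc25a25, a carrier of ATP-Mg into mitochondria, had 35, 31.1, 23.4 and 43.7 CPM at 9 weeks and 48, 62.9, 70.9 and 61.5 CPM at 6 weeks (-0.87 ± 0.22). S1pr1, the sphingosine 1-phosphate receptor of vessels, lay at -0.54 and the platelet integrin gene Itga2b at -0.68. Mrpl20, of the mitochondrial ribosome, and Polr1d, of RNA polymerases I and III, lay at -0.35 and -0.40. The cyclin gene Ccnl1 lay at -0.56.

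Single mice set some of the largest values. Gm13341, annotated as an unprocessed pseudogene (chromosome 2, 22587291 to 22587962), had 23.2, 28.1, 21.7 and 22.9 CPM at 9 weeks and 29.3, 292, 299.7 and 28.4 CPM at 6 weeks, so 2 of 4 mice gave its log2 fold change of -2.76. Over 20 alternatives its adjusted p ran from 0.00256 by DESeq2 to 1. Ren1, the renin gene, was named after its values were seen, as was Apoc1. Ren1 had 12.3, 15.2, 1.03 and 0.747 CPM at 9 weeks and 0.852, 0.75, 0.645 and 0.394 CPM at 6 weeks. The 2 high mice carry library numbers 19 and 20, and the other 6 carry numbers above 24. Ren1 had a log2 fold change of 3.44, 2.38 with library number range in the model, and 0.41 with numbers above 24 only. Apoc1, an apolipoprotein gene, had 77.8 CPM in the 6-week gland of replicate 2 and at most 0.639 CPM in the other 7.

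The differences between ages were set beside those of male cKO glands and female controls, which share no library with them. edgeR called 0 of 17086 genes (0%) for a difference between the control and the cKO effect, with 2510 at an unadjusted p under 0.05 and 86 called by DESeq2. For males against females it called 0 of 18590 (0%), with 858 at an unadjusted p under 0.05 and 7 called by DESeq2. Levels of the sexes come from separate tables, so only their differences between ages were compared. Fdx1 lay at -0.19 in male cKO glands and -0.28 in female controls, on the same side as in male controls. Cyp11b2 lay at 0.42 and -0.68, and Ier2 at 0.004 and -0.03. Esr1 lay at 0.02 and 0.49.

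**Figure D5:**
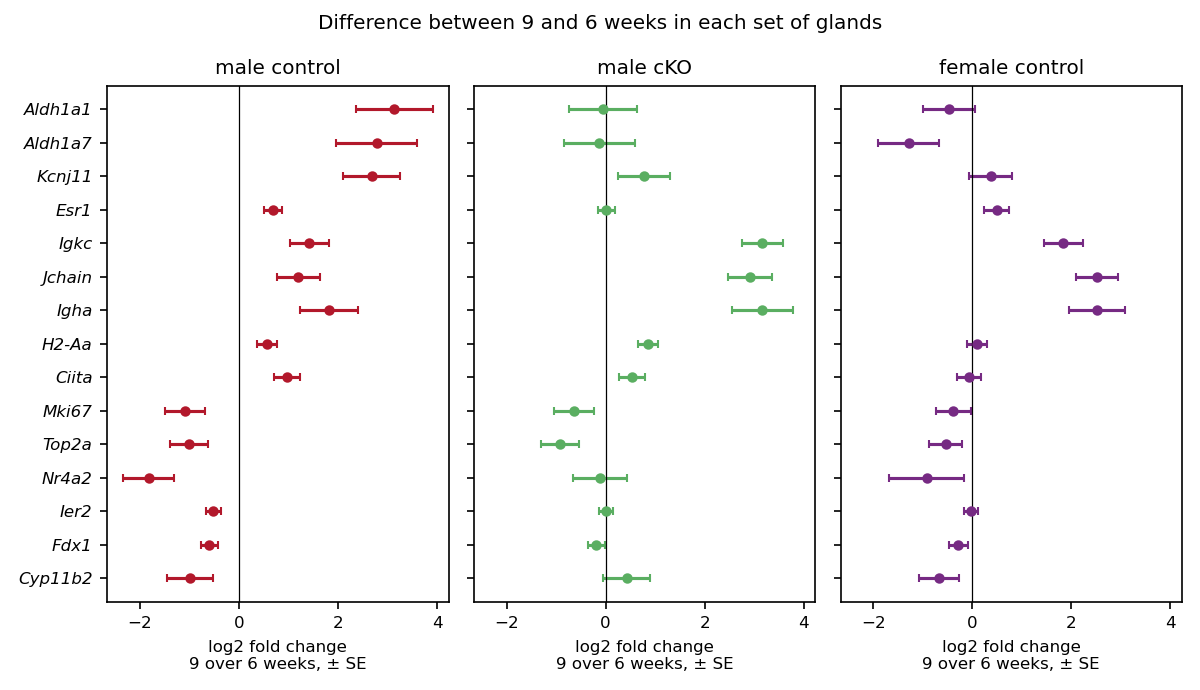
Log2 fold change between 9 and 6 weeks (horizontal axis, ± SE) of 15 genes in male control, male cKO and female control glands, each from 4 mice per age. Igkc, Jchain and Igha lie above 0 in all 3 sets, while Aldh1a1 is at 3.14 in male controls, -0.05 in male cKO glands and -0.47 in female controls.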

How the data were processed

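Poly(A) RNA of whole adrenal glands, from 4 mice per age, was made into directional libraries (per the labels' protocols). The authors deposited raw counts per Ensembl gene identifier as whole numbers. Per the submitters' processing notes the tools were featureCounts, STAR 2.7.6a, RSEM 1.6.3, cutadapt 1.16 and DESeq2 1.30.1, on GRCm38, with no role stated. The sources used here do not say whether strand was used or how reads of near-identical or overlapping genes were split. GENCODE M21 gave a symbol to 99.38% of 55487 identifiers. The table of surgery samples was not used here.

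From these counts, edgeR 4.0.16 (R 4.3.3) fitted all 24 male libraries in 6 groups, so that they share 1 estimate of the spread. Genes passed filterByExpr at a minimum count of 10, libraries were scaled by TMM, and quasi-likelihood p-values were adjusted by Benjamini-Hochberg over 17086 genes. The cKO effects came from this fit, those of females and the difference between the sexes from a joint fit of 32 libraries. Standard errors were computed as the absolute log2 fold change over the square root of F. The smallest library held 13.9M counts. Floors of 3 counts cover counting error only. Replicates of an age all differed beyond sampling noise. Promoters are RefSeq's on GRCm38.p6, matched by symbol, and were aligned with Biopython 1.88. Alternatives included DESeq2 1.42.0.

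Since fewer than 10 genes were called, the rule names the 15 smallest p per direction (average log2 CPM 1 or more, no overlap), up to 5 members per list by p, a fixed set, and the smallest p of the tests of difference. Not all of these are described. Members and lists were chosen with earlier results of these data known.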

Additional observations from a re-analysis of the deposited data

Results flagged for a closer look

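In 12 of 161 groups of 4 mice 1 gland lay apart from the other 3 by Dixon's ratio above its 95% critical value, and chance flags about 1 in 20 groups. At 9 weeks the flagged values were Kank2 in replicate 4 (152 CPM, others 135 to 137) and Cyp11b2 in replicate 3 (418 CPM, others 196 to 203). Replicate 1 was flagged in Btg2 (31.6 CPM, others 40.4 to 42) and mt-Cytb (7010 CPM, others 8780 to 8840). At 6 weeks the gland of replicate 3 stood apart in Fosb (17.9 CPM, others 0.854 to 3.25), Klf4 (21.3 CPM, others 12.7 to 13.9) and Ccnl1 (158 CPM, others 108 to 116). That of replicate 4 stood apart in Top2a (27.1 CPM, others 15.7 to 17.6), Adgrg3 (18.3 CPM, others 11.1 to 11.8) and Cx3cr1 (22.9 CPM, others 26.1 to 26.7). Thra stood apart in replicate 1 (139 CPM, others 112 to 115) and Apoc1 in replicate 2 (77.8 CPM, others 0.0657 to 0.639).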

How the results depend on the processing

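The count of 0 genes between the ages in male controls was 5 by DESeq2, 1 with no low-count filter, 2 in the fit of the 8 libraries compared (Aldh1a1 and Aif1l), 2 in that of 12 male control libraries (Aldh1a1 and Kcnj11) and 1 with library numbers above 24 only. It stayed 0 with RLE or upper-quartile scaling, a CPM filter of 5, the library number covariate and thinning, and ran from 0 to 3 when single replicates were left out (3 without 6-week replicate 1, 1 without 6-week replicate 3 or 4). Upper-quartile scaling and thinning were chosen after seeing the data, and genes named here alone after their values were seen. Listed genes called numbered 1 with the 8 libraries, 1 with 12 controls and 1 with numbers above 24.

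Same-numbered libraries hardly deviated together (correlations from -0.00625 to 0.0871), so the numbers were not treated as pairs. For replicates 3 and 4 the correlation (0.0871 and 0.035) was above that with other numbers (at most 0.0042 and 0.0134). Such low correlations cannot exclude a weak pairing. The replicate block gave 0 calls in 24 libraries and 6 in the 8 compared, 3 of them listed genes (Aldh1a1 with an adjusted p of 0.0245, Cyp11b2 with 0.0245 and Igha with 0.0402). It gave 17 for male cKO glands and 3 for female controls, and Igha, male cKO, 9 vs 6 weeks, was no longer called (0.0501).

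For the contrast 9 vs 6 weeks, male cKO glands, DESeq2 called 704 and the library number covariate 7, and leaving out replicates gave 2 to 1345. For control minus cKO DESeq2 called 86, with 0 to 21 when replicates were left out. For female controls DESeq2 called 22, RLE scaling 2 and control libraries only 3, with 0 to 14 when replicates were left out. For males minus females DESeq2 called 7, no filter 4 and control libraries only 2, with 0 to 3 when replicates were left out. Star was 0.15 and Cyp11b1 0.072 with library numbers above 24 only, and Cyp11a1 was -0.015 with the library number covariate. Without single replicates Star ran from -0.229 to 0.058 and Cyp11b1 from -0.135 to 0.088. The cause of these shifts was not tested.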
